A study of Mus musculus with 36 samples.

Results

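RNA-seq was used to compare mouse cells labelled Irf8 gKO after 3 days of osteoclast culture with cells labelled Irf8 gWT after 6 days. Each group held 3 of the 36 libraries of the series. Of the 24950 genes listed, 10624 had an RPKM (read count divided by gene-model length in kilobases and by the size of the library) of 1 or more in at least 3 of these 6 libraries. These 10624 genes were chosen by level alone, and all of them were tested. The comparison asks how closely knockout-labelled pre-osteoclasts already resembled wild-type-labelled mature osteoclasts, and which genes still differed.

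The tested cells carried the genotype label Irf8_gKO and were labelled PreOCs at day 3, and the cells they were set against carried the label Irf8_gWT and were labelled Mature OCs at day 6. Both were cultured bone marrow cells (tissue label Bone Marrow Derived Monocytes) from C57BL/6 mice. Both cultures had been given 20 ng/ml M-CSF, the growth factor on which macrophages depend, with 40 ng/ml RANKL, the cytokine that drives osteoclast formation. The labels do not spell out the "g" of the genotypes, and the sources used here give neither the extent of the deletion nor the age of the mice nor any pooling. Nothing in the labels ties the 3 libraries of a group to separate mice or cultures, so p-values measure a spread between libraries of a group that may be technical. That spread was estimated over the 18 gWT and gKO libraries of days 0, 3 and 6, not from the 6 compared alone. Genotype and day both differ between the groups, and their parts in a difference cannot be told apart from these 6 libraries. Values from gWT day 3 and from day 0 and day 6 of both genotypes, measured in the same sequencing set, are given beside the results where they show where a level stood. Those side comparisons share libraries with the main one.

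Osteoclasts are multinucleated cells of the monocyte lineage that dissolve bone mineral with acid and digest its matrix with secreted enzymes. RANKL acts through its receptor RANK to induce the transcription factor NFATc1, which switches on the genes for fusion, adhesion to bone, acid secretion and matrix digestion. IRF8 is a transcription factor of myeloid cells that is known to restrain NFATc1, to favour the monocyte fate over the granulocyte fate in progenitors, and to act with other interferon regulatory factors on interferon-response genes.

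The targeted gene was measured first. Irf8 RNA stood at 13.5, 14.6 and 12.2 RPKM in the 3 gKO-labelled day 3 libraries, against 4.72, 6.09 and 5.93 RPKM in the 3 gWT day 6 libraries. Every gKO-labelled library was above every gWT library, a log2 difference of 1.14 ± 0.08 (limma SE, adjusted p = 1.34e-09). On day 0, Irf8 averaged 57.4 ± 1.44 RPKM in gKO-labelled cells and 63.6 ± 2.61 RPKM in gWT cells (SD, n = 3 each). On day 6 it averaged 4.97 ± 0.255 RPKM in gKO-labelled cells and 5.58 ± 0.749 RPKM in gWT cells. The RNA level therefore did not show a loss of the transcript under the gKO label, and the groups are named by their labels throughout. RPKM is summed over the whole gene model, so these values do not check a deletion of part of the gene.

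The 3 gKO-labelled day 3 libraries held 49926650 to 56009916 alignments and the 3 gWT day 6 libraries held 34952628 to 46181492. One RPKM thus stood for 35.0 to 56.0 alignments per kilobase of gene model. Across the tested genes, the libraries correlated at r = 0.998 to 0.999 within gKO day 3, at 0.997 to 0.998 within gWT day 6, and at 0.955 to 0.962 between the groups. The 9 osteoclast markers (Ctsk, Acp5, Mmp9, Dcstamp, Ocstamp, Atp6v0d2, Calcr, Oscar, Itgb3) summed to 22914 to 23982 RPKM in gKO-labelled day 3 libraries and to 22764 to 23833 RPKM in gWT day 6 libraries. Osteoclast RNA was thus abundant under both labels. The 9 neutrophil markers summed to 5453 to 6679 RPKM in gKO-labelled day 3 libraries and to 80.4 to 101 RPKM in gWT day 6 libraries. The 8 stromal and endothelial markers summed to 24.1 to 33.1 RPKM in gKO-labelled day 3 libraries and to 83.7, 40.0 and 21.3 RPKM in gWT day 6 replicates 1, 2 and 3. In bulk RNA, more cells of a type and more of its RNA per cell cannot be told apart.

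Most genes had nearly the same level in both groups, and the genes that differed strongly were few and mostly higher under the gKO label. The 95% limma interval of the log2 difference lay inside ±1.5-fold for 9017 of 10624 genes (84.9%), and such genes are called matched here. Matching and calling are separate questions, since the libraries of a group differed little and small shifts passed the test. At an adjusted p under 0.05, 5275 genes (49.7%) were called, 2729 higher (25.7%) and 2546 lower (24.0%) in gKO-labelled day 3 cells. Of these called genes 3770 (35.5% of all tested) were also matched. Differences of at least 2-fold were called for 350 genes higher (3.29%) and 141 genes lower (1.33%). In 288 tested genes only gKO-labelled libraries reached 1 RPKM and in 133 only gWT libraries did, so the filter set their direction. Of the 10203 genes that reached 1 RPKM under both labels, 196 (1.92%) were higher and 98 (0.961%) lower by at least 2-fold. For 102 genes (0.960%) neither a difference nor a match could be called. The median log2 difference over all tested genes was -0.00.

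The same measures placed gKO day 3 closer to gWT day 6 than to gWT cells of its own day. The median size of the log2 difference between group means was 0.156 from gWT day 6, 0.215 from gKO day 6 and 0.455 from gWT day 3. By correlation the order of the nearest groups was the other one, with r = 0.964 to 0.970 to gKO day 6, 0.955 to 0.962 to gWT day 6 and 0.888 to 0.900 to gWT day 3. With gWT day 3 as the other group, 48.9% of genes were matched and 82.8% were called. For gKO day 6 against gWT day 6, the same-day comparison of mature cells, 83.1% were matched and 55.2% were called. The difference between gKO-labelled and gWT cells on day 3 was tested against that on day 6 and differed for 78.6% of genes. These comparisons share libraries and are descriptions.

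**Figure D1:**
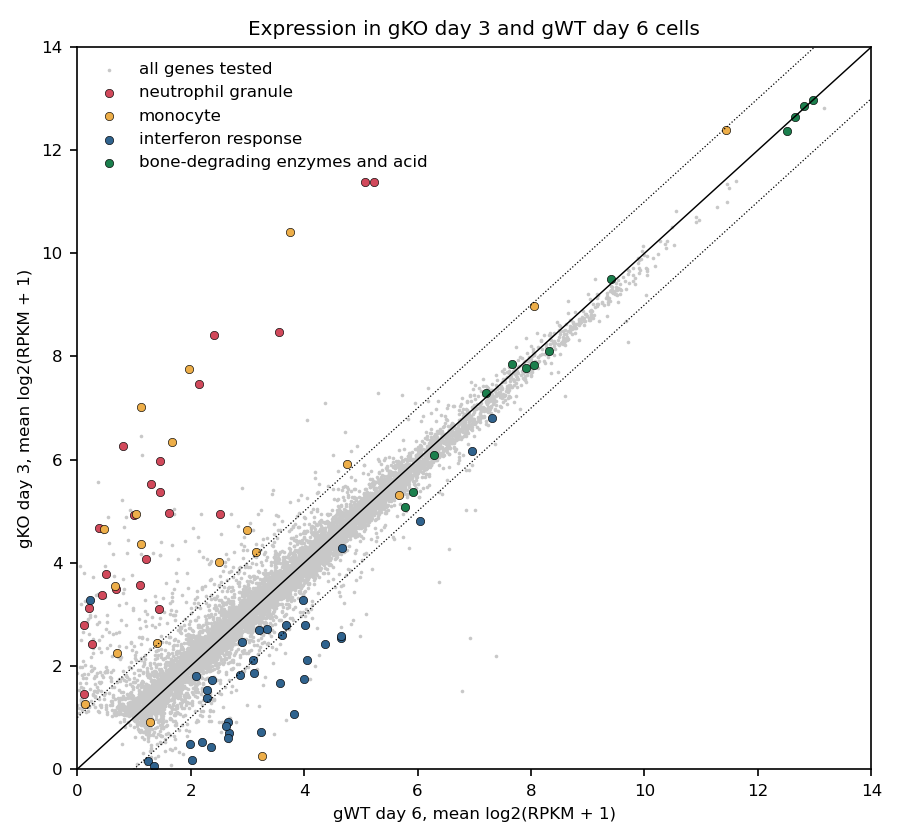
Mean log2(RPKM + 1) of 3 libraries for each of the 10624 genes, gKO-labelled day 3 on the vertical axis and gWT day 6 on the horizontal axis. The solid line marks equal levels, the dotted lines 2-fold differences, and colours mark 4 gene lists. The bone-degrading genes lie along the line of equal levels, the neutrophil granule genes lie above it, and 36 of 37 interferon-response genes lie below it.

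The most abundant enzymes that degrade bone, cathepsin K, MMP9 and the phosphatase Acp5, had close RNA levels in gKO-labelled day 3 and gWT day 6 cells. Of the 13 genes of the list of bone-degrading enzymes and acid machinery, 11 were matched (84.6%), 0 were higher and 3 were lower, with a median log2 difference of -0.14. The share matched was near the 84.9% of all tested genes, and nothing particular to the list is read from it. The counts of the other lists are likewise set against 84.9% matched, 25.7% higher and 24.0% lower over all tested genes. With no other groups in the fit than the 6 libraries compared, 7 genes of this list were called lower and 3 higher. Ctsk encodes cathepsin K, the collagen-digesting protease of osteoclasts. It was at 8106, 7860 and 8225 RPKM in gKO-labelled day 3 libraries, against 7900, 8023 and 8292 RPKM in gWT day 6 libraries. The ranges overlapped, the log2 difference was -0.00 and its interval ran between -0.51 and 0.51, while gWT cells of day 3 averaged 1631 RPKM. Mmp9, a gelatinase, was at 7614, 7256 and 7516 RPKM in gKO-labelled day 3 libraries, against 6990, 7600 and 7014 RPKM in gWT day 6 libraries. Acp5, the tartrate-resistant acid phosphatase used to stain osteoclasts, was at 6640, 6213 and 6431 RPKM in gKO-labelled day 3 libraries, against 6137, 6458 and 6812 RPKM in gWT day 6 libraries. Both genes overlapped between the groups and were matched. The 3 lower genes were Mmp12, Adam8 and Ostm1. Mmp12, a macrophage elastase, was at 32.1, 40.0 and 27.4 RPKM in gKO-labelled day 3 libraries, against 50.4, 53.1 and 58.9 RPKM in gWT day 6 libraries (log2 difference -0.70 ± 0.15, adjusted p = 0.0009). Adam8, a membrane protease, was at 39.8, 45.2 and 36.8 RPKM in gKO-labelled day 3 libraries, against 59.8, 60.8 and 58.9 RPKM in gWT day 6 libraries (-0.55 ± 0.06, adjusted p = 1.9e-06). Ostm1, the partner of the lysosomal chloride channel, was named with its values known. It was at 65.2, 65.4 and 69.7 RPKM in gKO-labelled day 3 libraries, against 77.3, 78.5 and 76.0 RPKM in gWT day 6 libraries (-0.21 ± 0.05, adjusted p = 0.00426), and was both lower and matched. None of the 3 overlapped between the groups.

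In the cell fusion list 14 of 15 tested genes were matched (93.3%), with 3 higher and 3 lower. Dcstamp, the transmembrane protein required for fusion of osteoclast precursors, was at 324, 318 and 359 RPKM in gKO-labelled day 3 libraries, against 413, 406 and 377 RPKM in gWT day 6 libraries. The libraries did not overlap, but the log2 difference of -0.26 ± 0.14 did not pass the test (adjusted p = 0.132). Atp6v0d2, a V-ATPase subunit also needed for fusion, was at 626, 610 and 642 RPKM in gKO-labelled day 3 libraries, against 689, 657 and 708 RPKM in gWT day 6 libraries, and was matched (-0.13, interval -0.38 to 0.13). The small counts of this list depended on single libraries: 1 gene was called higher without gKO day 3 replicate 1 or 2 or gWT day 6 replicate 2 or 3, and 1 was called lower without gWT day 6 replicate 3. Under quantile scaling 1 was called lower, and with only the 6 libraries compared in the fit 7 were.

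Of the 19 late osteoclast genes, 15 were matched (78.9%, against 84.9% of all tested genes), 3 were higher and 4 were lower (median log2 difference 0.01). Calcr encodes the calcitonin receptor, a marker of mature osteoclasts. It stood at 62.4, 60.9 and 62.8 RPKM in gKO-labelled day 3 libraries, against 48.03, 49.5 and 50.5 RPKM in gWT day 6 libraries. All gKO-labelled libraries were above all gWT libraries (log2 difference 0.32 ± 0.09, adjusted p = 0.00732), whereas gWT cells of day 3 averaged 4.35 RPKM. Itgb3, the beta chain of the integrin with which osteoclasts grip bone, was at 249, 241 and 273 RPKM in gKO-labelled day 3 libraries, against 253, 270 and 228 RPKM in gWT day 6 libraries, and was matched. Slc37a2, a sugar-phosphate transporter, was at 466, 448 and 475 RPKM in gKO-labelled day 3 libraries, against 437, 448 and 434 RPKM in gWT day 6 libraries, and was likewise matched. On the lower side, Rab38, a small GTPase of lysosome-related organelles, was at 57.9, 58.1 and 60.2 RPKM in gKO-labelled day 3 libraries, against 81.6, 82.6 and 81.1 RPKM in gWT day 6 libraries (-0.47 ± 0.13, adjusted p = 0.00694). Akr1b10, an aldo-keto reductase, was at 19.7, 20.0 and 22.1 RPKM in gKO-labelled day 3 libraries, against 31.5, 31.1 and 29.8 RPKM in gWT day 6 libraries (-0.56 ± 0.06).

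**Figure D2:**
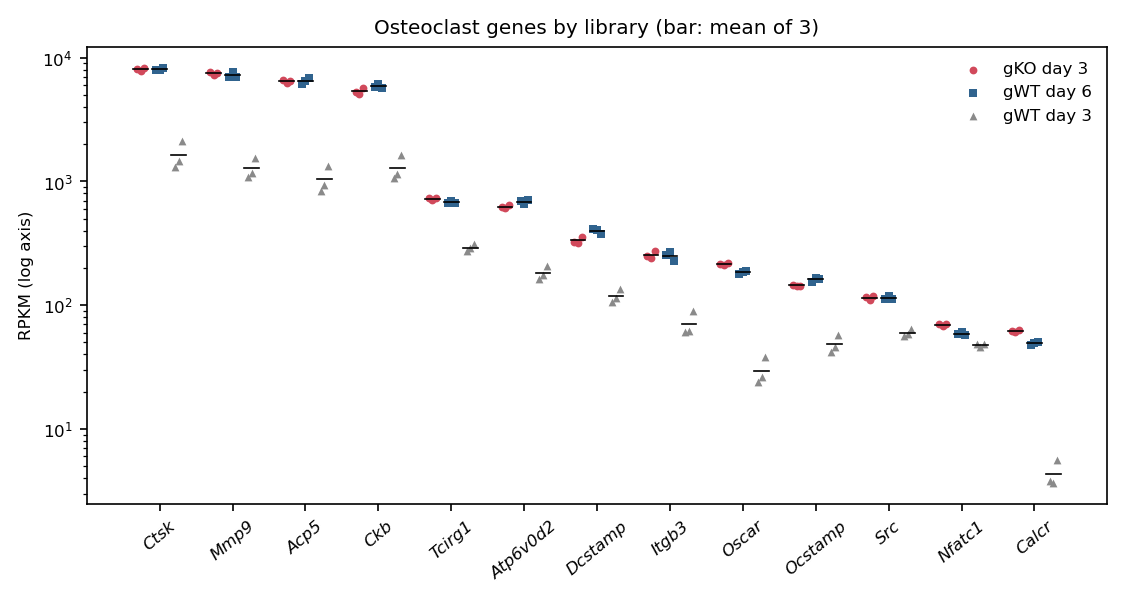
RPKM on a log axis of 13 osteoclast genes, with 3 libraries per group as points and the group mean as a bar, for gKO-labelled day 3, gWT day 6 and gWT day 3. The log2 differences of the 13 genes between gKO day 3 and gWT day 6 lie between -0.26 (Dcstamp) and 0.32 (Calcr). Calcr and Nfatc1 were called higher in gKO day 3. The gWT day 3 level lies below both, as for Calcr at a mean of 4.35 RPKM. Oscar, Ocstamp, Src and Nfatc1 were added with their values known.

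Receptors and signalling adaptors of the RANK and ITAM pathways, which carry the signals that induce NFATc1, were matched for 17 of 21 genes (81.0%, against 84.9% of all tested genes). Of the 21, 11 were higher, against 25.7% of all tested genes, and 3 were lower (median log2 difference 0.21). For 1 of the 21 no gWT library reached 1 RPKM, so it had to differ. Of the other 20, 10 were higher, against 24.0% of such genes in all, and 3 were lower (median log2 difference 0.19). Csf1r, the M-CSF receptor, was at 602, 599 and 586 RPKM in gKO-labelled day 3 libraries, against 499, 531 and 511 RPKM in gWT day 6 libraries (0.21 ± 0.05, adjusted p = 0.00311). Tyrobp, the ITAM adaptor DAP12, was at 1084, 1081 and 1012 RPKM in gKO-labelled day 3 libraries, against 965, 979 and 1020 RPKM in gWT day 6 libraries, and was matched. One member rose and another fell by at least 2-fold. Tnfrsf1b, a TNF receptor, was at 70.8, 78.6 and 65.0 RPKM in gKO-labelled day 3 libraries, against 26.6, 28.1 and 27.9 RPKM in gWT day 6 libraries (1.34 ± 0.06, adjusted p = 4.19e-12). Blnk, an adaptor of ITAM signalling shared with B cells, was at 11.8, 12.1 and 11.3 RPKM in gKO-labelled day 3 libraries, against 28.8, 28.5 and 29.8 RPKM in gWT day 6 libraries (-1.23 ± 0.04, adjusted p = 3.11e-13). Blnk was low under the gKO label on the other days too, at means of 7.32 RPKM on day 0 and 11.4 RPKM on day 6.

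Among transcription factors that promote the fate, 19 of 24 tested genes were matched (79.2%), with 8 higher and 5 lower. Of the 22 that reached 1 RPKM under both labels, 7 were higher and 4 lower. Nfatc1, which was added with its values known, was at 70.6, 68.2 and 70.0 RPKM in gKO-labelled day 3 libraries, against 58.7, 60.3 and 57.5 RPKM in gWT day 6 libraries (0.24 ± 0.06, adjusted p = 0.00572). The groups did not overlap, and the difference was within 1.5-fold. Spi1, which encodes PU.1, was at 397, 392 and 396 RPKM in gKO-labelled day 3 libraries, against 382, 395 and 394 RPKM in gWT day 6 libraries, and was matched. The AP-1 genes Fos and Junb fell. Fos was at 29.1, 32.7 and 31.4 RPKM in gKO-labelled day 3 libraries, against 56.1, 53.6 and 53.5 RPKM in gWT day 6 libraries (-0.79 ± 0.05, adjusted p = 2.04e-10). Junb was at 104, 98.3 and 103 RPKM in gKO-labelled day 3 libraries, against 141, 145 and 151 RPKM in gWT day 6 libraries (-0.52 ± 0.06, adjusted p = 1.67e-06). Without gWT day 6 replicate 1, 3 members of this list were called lower.

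Of the repressors of osteoclast formation, 11 of 19 tested genes were matched (57.9%), 8 were higher and 5 lower. The 8 higher genes include Irf8, the targeted gene. Of the 18 that reached 1 RPKM under both labels, 7 were higher and 5 lower. Nr4a1, an orphan nuclear receptor, was at 10.4, 12.1 and 9.88 RPKM in gKO-labelled day 3 libraries, against 0.444, 0.586 and 0.735 RPKM in gWT day 6 libraries (2.89 ± 0.08, adjusted p = 2.17e-14). Nr4a1 thus passed the level filter through the gKO-labelled libraries only and had to differ. Klf2, a Kruppel-like transcription factor, was at 14.8, 16.1 and 13.9 RPKM in gKO-labelled day 3 libraries, against 3.70, 4.30 and 4.17 RPKM in gWT day 6 libraries (1.66 ± 0.08, adjusted p = 2.68e-11). Id3, an inhibitor of helix-loop-helix factors, was at 5.88, 6.30 and 5.91 RPKM in gKO-labelled day 3 libraries, against 25.9, 28.8 and 27.2 RPKM in gWT day 6 libraries (-2.01 ± 0.09, adjusted p = 2.8e-12). No library of one group overlapped the other group for any of these 3 genes. The count of 5 lower genes was 2 to 3 when gKO day 3 replicate 1 or 3 or any 1 gWT day 6 replicate was left out.

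The cytoskeleton of the sealing zone, the actin ring with which the cell encloses the bone surface it degrades, was matched for 25 of 30 genes (83.3%), with 8 higher and 3 lower. Pstpip1, an actin-binding adaptor, was at 255, 252 and 267 RPKM in gKO-labelled day 3 libraries, against 256, 258 and 259 RPKM in gWT day 6 libraries, and was matched. Cttn, which encodes cortactin, an actin-branching protein of the sealing zone, was the exception by size. It was at 11.9, 12.1 and 12.5 RPKM in gKO-labelled day 3 libraries, against 32.0, 30.4 and 29.9 RPKM in gWT day 6 libraries (-1.27 ± 0.10, adjusted p = 1e-08). Its gKO-labelled day 3 level was near the gWT day 3 mean of 12.3 RPKM, and it averaged 24.5 RPKM in gKO-labelled cells at day 6. The 8 higher genes of this list were 14 with only the 6 libraries in the fit, 5 without gKO day 3 replicate 2 or gWT day 6 replicate 2 and 4 without gWT day 6 replicate 1.

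The V-ATPase, the proton pump that acidifies the resorption space and the lysosome, was matched for 18 of 18 subunit genes, with 7 lower and a median log2 difference of -0.15. Tcirg1, the pump subunit of the osteoclast border, was at 729, 704 and 730 RPKM in gKO-labelled day 3 libraries, against 667, 694 and 674 RPKM in gWT day 6 libraries, and was matched. Atp6v1h was at 207, 206 and 227 RPKM in gKO-labelled day 3 libraries, against 259, 256 and 255 RPKM in gWT day 6 libraries (-0.27 ± 0.07, adjusted p = 0.00625). The 7 lower calls became 2 without gKO day 3 replicate 1 or 2, 3 without gWT day 6 replicate 1 or 2, under quantile scaling 3 subunits were called lower and 3 higher, and with only the 6 libraries in the fit 13 were lower and 2 higher.

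In the lysosome list 26 of 31 genes were matched (83.9%), 2 were higher and 13 lower. The 4 members that were lower by at least 2-fold were cysteine proteases. Ctss, cathepsin S, was at 145, 168 and 137 RPKM in gKO-labelled day 3 libraries, against 381, 404 and 383 RPKM in gWT day 6 libraries (-1.38 ± 0.09, adjusted p = 7.96e-10). Ctsh was at 10.1, 10.3 and 9.24 RPKM in gKO-labelled day 3 libraries, against 26.8, 28.9 and 29.3 RPKM in gWT day 6 libraries (-1.43 ± 0.06, adjusted p = 3.78e-12). Ctsl was at 75.8, 85.5 and 74.2 RPKM in gKO-labelled day 3 libraries, against 160, 166 and 167 RPKM in gWT day 6 libraries (-1.06 ± 0.09). Lgmn, legumain, was at 53.2, 55.4 and 54.9 RPKM in gKO-labelled day 3 libraries, against 109, 117 and 120 RPKM in gWT day 6 libraries (-1.07 ± 0.06). These 4 proteases are endolysosomal enzymes that macrophages also use, and none overlapped between the groups. Cd68, a lysosomal glycoprotein, was at 979, 958 and 916 RPKM in gKO-labelled day 3 libraries, against 921, 952 and 1062 RPKM in gWT day 6 libraries, and was matched.

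The respiratory chain, which supplies the ATP that resorption consumes, was slightly lower in gKO-labelled day 3 cells. Of its 46 nuclear genes 0 were called higher and 34 lower, with a median log2 difference of -0.23, and 44 were matched. Atp5g1, an ATP synthase subunit, was at 193, 192 and 210 RPKM in gKO-labelled day 3 libraries, against 253, 262 and 254 RPKM in gWT day 6 libraries (-0.37 ± 0.09, adjusted p = 0.00331). Cox4i1, a subunit of cytochrome oxidase, was at 805, 793 and 844 RPKM in gKO-labelled day 3 libraries, against 946, 1011 and 943 RPKM in gWT day 6 libraries (-0.25 ± 0.10, adjusted p = 0.0473). Without gKO day 3 replicate 1, 21 genes were called lower, without gKO day 3 replicate 2, 17, and without gWT day 6 replicate 3, 20. With all 36 libraries in the fit 22 were called lower, and with only the 6 libraries compared 45 were.

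In glycolysis, 15 of 21 tested genes were matched, with 9 higher and 5 lower (median log2 difference -0.00). For 1 of the 21 no gWT library reached 1 RPKM, so it had to differ, and of the other 20, 8 were higher and 5 lower. Aldoa, aldolase, was at 994, 987 and 1016 RPKM in gKO-labelled day 3 libraries, against 1000, 1024 and 1022 RPKM in gWT day 6 libraries, and was matched. Slc2a6, a member of the glucose transporter family, was at 14.5, 15.9 and 12.6 RPKM in gKO-labelled day 3 libraries, against 4.93, 5.17 and 5.19 RPKM in gWT day 6 libraries (1.33 ± 0.07, adjusted p = 1.13e-10). Slc16a3, which exports lactate, was at 20.1, 22.01 and 17.3 RPKM in gKO-labelled day 3 libraries, against 8.02, 8.18 and 7.49 RPKM in gWT day 6 libraries (1.22 ± 0.08, adjusted p = 1.67e-09). The 5 lower calls were 3 without gKO day 3 replicate 1 or 2 or gWT day 6 replicate 1 or 3.

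The proliferation genes of DNA replication and mitosis were far below their gWT day 3 level in gKO-labelled day 3 cells and still slightly above gWT day 6. Their median log2 difference was 0.22 against gWT day 6, with 24 of 46 tested genes higher, 1 lower and 32 matched. The side comparison gave a median log2 difference of -1.93 for gKO day 3 against gWT day 3. Mki67, a marker of dividing cells, was at 18.6, 18.2 and 17.4 RPKM in gKO-labelled day 3 libraries, against 8.97, 9.04 and 7.22 RPKM in gWT day 6 libraries (1.02 ± 0.17, adjusted p = 0.000109), and gWT cells of day 3 averaged 45.6 RPKM. E2f2, an activator of replication genes, was at 7.99, 8.23 and 6.87 RPKM in gKO-labelled day 3 libraries, against 1.03, 0.881 and 1.04 RPKM in gWT day 6 libraries (2.13 ± 0.07, adjusted p = 1.37e-13). Pcna, the replication clamp, was at 75.2, 81.4 and 74.3 RPKM in gKO-labelled day 3 libraries, against 86.5, 82.3 and 82.2 RPKM in gWT day 6 libraries, and was matched. The D cyclins, which carry growth signals into the cycle, moved apart. Ccnd3 was at 40.7, 42.2 and 34.9 RPKM in gKO-labelled day 3 libraries, against 9.88, 9.59 and 9.74 RPKM in gWT day 6 libraries (1.90 ± 0.07, adjusted p = 2.27e-13). Ccnd1 was at 2.80, 3.13 and 2.62 RPKM in gKO-labelled day 3 libraries, against 8.60, 8.62 and 6.79 RPKM in gWT day 6 libraries (-1.22 ± 0.08, adjusted p = 7.91e-10).

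**Figure D3:**
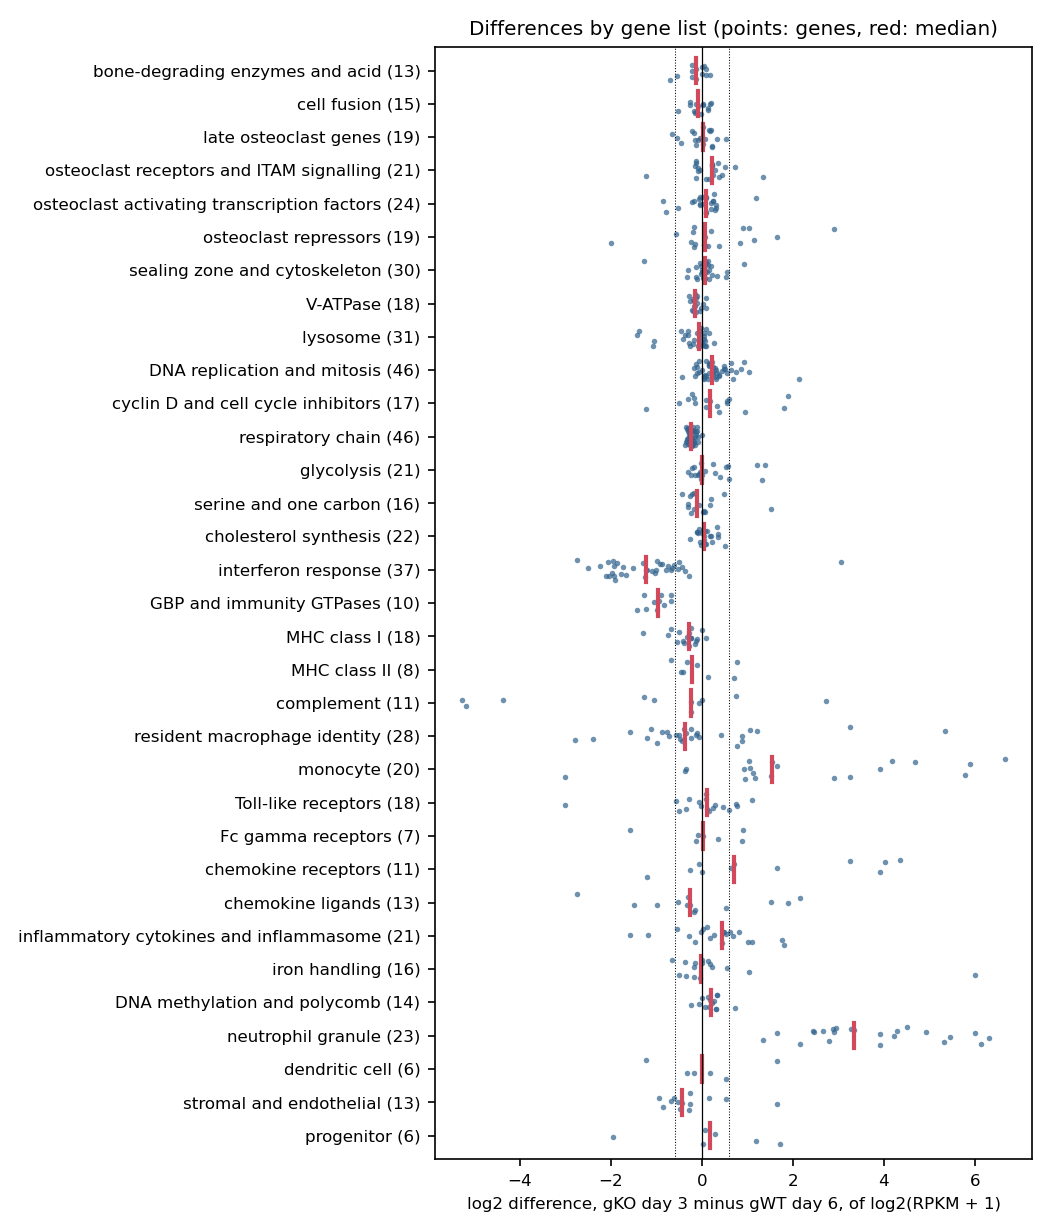
Log2 difference of log2(RPKM + 1), gKO-labelled day 3 minus gWT day 6, for each tested gene (points) of each gene list with at least 5 tested genes, with the list's median in red and its number of tested genes in parentheses. The dotted lines mark 1.5-fold. Of the respiratory chain genes 45 of 46 lie below 0, with a median of -0.23, as do 15 of 18 V-ATPase genes, all within the dotted lines; the neutrophil granule list has a median of 3.34, and the interferon list has a median of -1.23.

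Most of the 15 highest rises were genes of neutrophil granules and of inflammatory monocytes. Of the 24 neutrophil granule genes 23 were tested. For 9 of the 23 no gWT library reached 1 RPKM, so these 9 passed the level filter through the gKO-labelled libraries and had to differ. The other 14 reached 1 RPKM under both labels, and all 14 were higher in gKO-labelled day 3 cells by at least 2-fold, against 1.92% of the 10203 tested genes that did so. Their median log2 difference was 4.07. S100a8, a subunit of calprotectin, was at 2899, 2749 and 2411 RPKM in gKO-labelled day 3 libraries, against 26.1, 40.3 and 32.9 RPKM in gWT day 6 libraries (6.32 ± 0.24, adjusted p = 1.68e-12). S100a9, its partner, was at 2958, 2673 and 2355 RPKM in gKO-labelled day 3 libraries, against 33.1, 37.2 and 39.7 RPKM in gWT day 6 libraries (6.14 ± 0.22). Both were thus among the abundant RNAs of the gKO-labelled cells. Lcn2, an iron-sequestering protein of neutrophil granules, was at 373, 346 and 309 RPKM in gKO-labelled day 3 libraries, against 4.32, 4.95 and 3.75 RPKM in gWT day 6 libraries (6.01 ± 0.26, adjusted p = 3.8e-11). Ltf, lactoferrin, was at 203, 166 and 161 RPKM in gKO-labelled day 3 libraries, against 3.14, 3.96 and 3.26 RPKM in gWT day 6 libraries (5.31 ± 0.25). Camp, the cathelicidin precursor, was at 69.0, 56.3 and 60.1 RPKM in gKO-labelled day 3 libraries, against 1.67, 1.81 and 1.81 RPKM in gWT day 6 libraries (4.502 ± 0.27). No gene of these 5 overlapped between the groups. Elane, the neutrophil elastase of early granules, was added with its values known. It was at 41.1, 37.4 and 42.2 RPKM in gKO-labelled day 3 libraries, against 1.37, 2.18 and 1.76 RPKM in gWT day 6 libraries (3.90 ± 0.12, adjusted p = 5.4e-14). On day 0, S100a8 averaged 9030 RPKM in gKO-labelled cells and 657 RPKM in gWT cells.

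Of 20 tested monocyte genes, 4 reached 1 RPKM only in gKO-labelled libraries and 2 only in gWT libraries. Of the 14 that reached it under both labels, 13 were higher, 11 of them by at least 2-fold, against 24.0% and 1.92% of such genes in all, and 1 was lower and 1 matched (median log2 difference 1.58). The lower gene was Cd180, with a log2 difference of -0.36. The 2 genes that reached 1 RPKM only in gWT libraries were Ly86 and Vcan, with log2 differences of -3.01 and -0.38. Chil3, a chitinase-like secreted protein, had the highest log2 difference of all tested genes. It was at 1445, 1387 and 1255 RPKM in gKO-labelled day 3 libraries, against 11.4, 13.2 and 12.96 RPKM in gWT day 6 libraries (6.66 ± 0.19, adjusted p = 5.9e-14). Ly6c2, the surface marker of inflammatory monocytes, was at 228, 234 and 187 RPKM in gKO-labelled day 3 libraries, against 3.06, 3.02 and 2.69 RPKM in gWT day 6 libraries (5.78 ± 0.21, adjusted p = 3.53e-12). Ly6c2 has a near-identical neighbour, Ly6c1, and how reads matching both were divided is not stated. Hp, haptoglobin, was at 132, 132 and 121 RPKM in gKO-labelled day 3 libraries, against 1.18, 1.16 and 1.19 RPKM in gWT day 6 libraries (5.89 ± 0.17). F13a1, a coagulation factor subunit made by monocytes, is counted in the list of resident macrophage identity and not in the monocyte list. It was at 87.3, 100 and 75.8 RPKM in gKO-labelled day 3 libraries, against 1.08, 1.53 and 0.939 RPKM in gWT day 6 libraries (5.35 ± 0.12). The groups did not overlap for Chil3, Ly6c2, Hp or F13a1. Plac8, Saa3, Penk, Wfdc21, Pglyrp1 and Ngp complete the 15 highest rises, with log2 differences of 4.68, 5.20, 4.42, 5.46, 4.94 and 4.92. The neutrophil marker sum was high in the same libraries, and its part in the monocyte gene differences was not tested.

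Of 11 tested genes for chemotactic receptors, 3 had no gWT library at 1 RPKM. Of the 8 that reached it under both labels, 4 were higher and 2 lower (median log2 difference 0.36), against 24.0% and 23.7% of such genes in all. Ccr2, the receptor that draws monocytes out of bone marrow, was at 29.6, 35.6 and 24.8 RPKM in gKO-labelled day 3 libraries, against 1.16, 1.13 and 0.837 RPKM in gWT day 6 libraries (3.91 ± 0.12, adjusted p = 8.55e-14). Fpr1, a receptor for formylated bacterial peptides, was at 29.3, 33.1 and 24.0 RPKM in gKO-labelled day 3 libraries, against 0.391, 0.638 and 0.335 RPKM in gWT day 6 libraries (4.35 ± 0.12). Fpr1 thus passed the level filter through the gKO-labelled libraries only and had to differ. Cx3cr1, the fractalkine receptor, was at 20.1, 23.7 and 15.9 RPKM in gKO-labelled day 3 libraries, against 1.22, 1.24 and 1.07 RPKM in gWT day 6 libraries (3.25 ± 0.12). In contrast Ccr1, a receptor for inflammatory chemokines, was at 183, 181 and 178 RPKM in gKO-labelled day 3 libraries, against 181, 172 and 185 RPKM in gWT day 6 libraries, and was matched. It was one of the genes high in mature cells, since gWT day 0 averaged 24.8 RPKM.

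Of 21 tested inflammatory cytokine and inflammasome genes, 3 had no gWT library at 1 RPKM, and of the other 18, 11 were higher and 4 lower (median log2 difference 0.22). Tnf was at 8.98, 10.9 and 9.30 RPKM in gKO-labelled day 3 libraries, against 2.21, 1.98 and 2.32 RPKM in gWT day 6 libraries (1.75 ± 0.11, adjusted p = 4.75e-10). Nlrp3, an inflammasome sensor, was at 10.3, 11.7 and 8.96 RPKM in gKO-labelled day 3 libraries, against 2.18, 2.50 and 2.07 RPKM in gWT day 6 libraries (1.799 ± 0.08). Casp1, the protease that the inflammasome activates, went the other way. It was at 13.5, 13.5 and 12.3 RPKM in gKO-labelled day 3 libraries, against 30.9, 30.4 and 31.8 RPKM in gWT day 6 libraries (-1.19 ± 0.06, adjusted p = 7.77e-11).

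The interferon-response genes were lower almost throughout. Of 39 listed genes 37 were tested. For 11 of the 37 no gKO-labelled library reached 1 RPKM and for 1 no gWT library did, so these had to differ. The other 25 reached it under both labels, and all 25 were lower in gKO-labelled day 3 cells, 11 of them by at least 2-fold, against 23.7% and 0.961% of such genes in all. Their median log2 difference was -0.98. Because many such genes carry, near their start, a pair of GAAA boxes with 2 bases between them, the element that interferon regulatory factors bind, the stretch of 250 bases before to 50 bases after the start was searched on both strands for this motif, written as GAAA, any 2 bases, GAAA. The promoters are shown for Isg15 and Ifit3, named from the largest falls, for Irgm1, the most abundant tested immunity GTPase, and for C1qb, a gene that fell further and has no match. They are from RefSeq on the build GRCm38.p6, whereas the expression values were made on mm9, and are printed 5′ to 3′ on the strand of the gene with matches in capitals.
Isg15 (chr4:156200769-156201068, minus strand): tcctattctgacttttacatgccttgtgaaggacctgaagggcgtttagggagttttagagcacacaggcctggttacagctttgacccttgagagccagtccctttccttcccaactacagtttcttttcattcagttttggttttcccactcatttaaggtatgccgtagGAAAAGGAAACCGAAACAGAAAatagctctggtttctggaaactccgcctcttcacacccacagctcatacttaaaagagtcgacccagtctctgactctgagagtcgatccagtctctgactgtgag
Ifit3 (chr19:34583279-34583578, plus strand): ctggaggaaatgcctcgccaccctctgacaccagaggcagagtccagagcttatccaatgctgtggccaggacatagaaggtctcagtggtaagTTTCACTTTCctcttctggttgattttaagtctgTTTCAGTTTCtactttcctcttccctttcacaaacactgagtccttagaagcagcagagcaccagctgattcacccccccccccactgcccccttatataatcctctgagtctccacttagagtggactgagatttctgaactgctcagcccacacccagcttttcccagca
Irgm1 (chr11:48871371-48871670, minus strand): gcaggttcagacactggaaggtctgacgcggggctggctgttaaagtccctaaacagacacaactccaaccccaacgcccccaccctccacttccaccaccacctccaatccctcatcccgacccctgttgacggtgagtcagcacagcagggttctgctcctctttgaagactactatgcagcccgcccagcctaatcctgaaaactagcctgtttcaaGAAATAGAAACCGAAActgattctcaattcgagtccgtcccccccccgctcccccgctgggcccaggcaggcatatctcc
C1qb (chr4:136886151-136886450, minus strand): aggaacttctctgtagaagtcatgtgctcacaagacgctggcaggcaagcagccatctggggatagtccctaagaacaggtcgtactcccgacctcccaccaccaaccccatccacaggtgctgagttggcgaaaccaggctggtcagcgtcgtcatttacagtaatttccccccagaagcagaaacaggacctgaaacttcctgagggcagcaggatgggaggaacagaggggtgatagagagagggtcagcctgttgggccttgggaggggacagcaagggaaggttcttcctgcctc
Isg15 holds 3 overlapping matches that begin 78, 72 and 66 bases before the start, Ifit3 holds 2 matches on the opposite strand and Irgm1 holds 2 overlapping ones. Among list members with a promoter in the table, 15 of 27 interferon-response genes (55.6%) and 7 of 7 immunity GTPases (100%) held a match, against 326 of 8450 tested genes (3.86%) and 1079 of 27025 genes in all (3.99%). Among the other lists searched, a match was found in 3 of 13 MHC class I genes (23.1%), 2 of 12 V-ATPase genes (16.7%), 1 of 11 bone-degrading genes (9.09%) and 2 of 35 respiratory chain genes (5.71%). It was found in 0 of 21 neutrophil granule genes, 0 of 16 monocyte genes and 0 of 9 complement genes. Of the 15 largest falls 2 of 10 with a promoter held one, and of the 15 largest rises 1 of 12. A match is a description of these letters and does not show binding.

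Isg15, a ubiquitin-like protein, was at 2.37, 2.69 and 2.05 RPKM in gKO-labelled day 3 libraries, against 14.6, 15.9 and 14.4 RPKM in gWT day 6 libraries (-2.25 ± 0.12, adjusted p = 7.43e-11). Ifit3, which binds viral RNA in a complex with its relatives, was at 0.771, 0.696 and 0.507 RPKM in gKO-labelled day 3 libraries, against 7.69, 9.57 and 8.18 RPKM in gWT day 6 libraries (-2.51 ± 0.15, adjusted p = 3.57e-10). Oasl2, a relative of the 2'-5' oligoadenylate synthetases, was at 1.03, 1.29 and 0.990 RPKM in gKO-labelled day 3 libraries, against 12.6, 14.7 and 12.2 RPKM in gWT day 6 libraries (-2.75 ± 0.10). All gKO-labelled libraries were below all gWT libraries for these genes. Of the 3, Ifit3 passed the level filter through the gWT libraries only and had to differ. Of the 37 tested genes 3 were matched, among them Stat2, a transcription factor of interferon signalling, with a log2 difference of -0.44, and Xaf1, an apoptosis gene, with one of -0.28. The exception in direction was Samd9l, a cytoplasmic restriction factor. It was at 9.05, 9.27 and 7.83 RPKM in gKO-labelled day 3 libraries, against 0.206, 0.158 and 0.120 RPKM in gWT day 6 libraries (3.06 ± 0.08, adjusted p = 1.92e-14). Samd9l thus passed the level filter through the gKO-labelled libraries only and had to differ. Samd9l was near 0 in gWT cells of every day, with means of 0.192 and 0.166 RPKM on days 0 and 3, against means of 12.3 and 6.98 RPKM in gKO-labelled cells on days 0 and 6.

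Of 16 listed guanylate-binding proteins and related GTPases of cell-autonomous immunity, 10 were tested. For 4 of the 10, no gKO-labelled library reached 1 RPKM. The other 6 were all lower, 4 of them by at least 2-fold (median log2 difference -1.14). Irgm1 was at 5.90, 6.34 and 5.50 RPKM in gKO-labelled day 3 libraries, against 14.97, 15.7 and 16.6 RPKM in gWT day 6 libraries (-1.28 ± 0.07, adjusted p = 9.33e-11). Gbp7 was at 4.92, 4.42 and 4.77 RPKM in gKO-labelled day 3 libraries, against 8.04, 8.09 and 8.16 RPKM in gWT day 6 libraries (-0.67 ± 0.07). Antigen presentation by MHC class I was lower in 11 and higher in 0 of 18 tested genes, with 11 matched (median log2 difference -0.28). For 1 of the 18 no gKO-labelled library reached 1 RPKM, so it had to differ, and of the other 17, 10 were lower. Psmb8, an immunoproteasome subunit, was at 37.3, 37.8 and 38.2 RPKM in gKO-labelled day 3 libraries, against 62.3, 70.3 and 61.0 RPKM in gWT day 6 libraries (-0.75 ± 0.10, adjusted p = 1.02e-05). B2m, the light chain, was at 798, 827 and 732 RPKM in gKO-labelled day 3 libraries, against 916, 964 and 977 RPKM in gWT day 6 libraries (-0.28 ± 0.08), and was matched. The heavy-chain genes of class I are near-identical in parts, and their single values are uncertain. In class II, 4 of 8 tested genes were lower and 2 higher. For 1 of the 8 no gWT library reached 1 RPKM, so it had to differ, and of the other 7, 4 were lower and 1 higher. Cd74, the invariant chain, was at 66.0, 69.4 and 60.3 RPKM in gKO-labelled day 3 libraries, against 100, 116 and 99.6 RPKM in gWT day 6 libraries (-0.68 ± 0.11, adjusted p = 5.32e-05).

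The largest falls of all tested genes were the 3 chains of C1q, the recognition unit of the classical complement pathway, which macrophages secrete. C1qa was at 1.69, 1.65 and 2.31 RPKM in gKO-labelled day 3 libraries, against 105, 115 and 110 RPKM in gWT day 6 libraries (-5.27 ± 0.11, adjusted p = 1.7e-15). C1qb was at 3.41, 3.84 and 3.54 RPKM in gKO-labelled day 3 libraries, against 154, 174 and 169 RPKM in gWT day 6 libraries (-5.18 ± 0.13, adjusted p = 9.69e-15). C1qc was at 4.99, 4.41 and 5.05 RPKM in gKO-labelled day 3 libraries, against 113, 127 and 121 RPKM in gWT day 6 libraries (-4.38 ± 0.10). The C1q chains were low under the gKO label on every day: C1qa averaged 1.799 RPKM on day 0 and 1.37 RPKM on day 6 in gKO-labelled cells, against 758 RPKM on day 0 in gWT cells. C3, the central complement component, rose instead. It was at 141, 143 and 123 RPKM in gKO-labelled day 3 libraries, against 18.8, 21.4 and 18.996 RPKM in gWT day 6 libraries (2.72 ± 0.10, adjusted p = 3.04e-13). In the whole complement list 7 of 11 tested genes were lower and 2 higher. For 1 of the 11 no gKO-labelled library reached 1 RPKM, so it had to differ, and of the other 10, 6 were lower and 2 higher.

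Genes of resident macrophage identity were lower in 17 and higher in 8 of 28 tested, with 8 matched (median log2 difference -0.38). For 3 of the 28 no gKO-labelled library reached 1 RPKM and for 1 no gWT library did, so these had to differ. Of the 24 that reached it under both labels, 7 were higher and 14 lower, against 24.0% and 23.7% of such genes in all. Msr1, a scavenger receptor, was at 4.48, 5.66 and 4.93 RPKM in gKO-labelled day 3 libraries, against 30.1, 29.7 and 31.7 RPKM in gWT day 6 libraries (-2.39 ± 0.07, adjusted p = 3e-14). Folr2, a folate receptor of tissue macrophages, was at 0.394, 0.577 and 0.843 RPKM in gKO-labelled day 3 libraries, against 9.72, 9.64 and 10.7 RPKM in gWT day 6 libraries (-2.79 ± 0.09). Folr2 thus passed the level filter through the gWT libraries only and had to differ. The largest differences of the list were rises, those of F13a1 and Cx3cr1, with log2 differences of 5.35 and 3.25. By at least 2-fold, 4 genes of the list were higher and 5 lower. Among the 24 under both labels, 3 were higher and 2 lower by that size, against 1.92% and 0.961% of such genes in all. Adgre1, which encodes F4/80, was at 63.2, 75.9 and 60.4 RPKM in gKO-labelled day 3 libraries, against 75.1, 82.4 and 77.6 RPKM in gWT day 6 libraries, and was matched (-0.24 ± 0.07, adjusted p = 0.0104). The 6 macrophage markers summed to 92.9 to 117 RPKM in gKO-labelled day 3 libraries and to 211 to 230 RPKM in gWT day 6 libraries. Without C1qa, the other 5 summed to 90.6 to 116 RPKM in gKO-labelled day 3 libraries and to 106 to 115 RPKM in gWT day 6 libraries, and these ranges overlapped. The single markers were not level, since 4 of the 6 were called lower and 1 higher. Mrc1 and Fcgr1 had log2 differences of -1.11 and -1.58, and Cx3cr1 had one of 3.25.

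Other large falls were spread over several functions. Ly86, the partner of the Toll-like receptor relative CD180, was at 0.182, 0.112 and 0.281 RPKM in gKO-labelled day 3 libraries, against 7.91, 8.41 and 9.42 RPKM in gWT day 6 libraries (-3.01 ± 0.11, adjusted p = 5.56e-13). Ly86 thus passed the level filter through the gWT libraries only and had to differ. Cd180 itself was at 38.4, 39.5 and 37.9 RPKM in gKO-labelled day 3 libraries, against 49.1, 48.8 and 51.5 RPKM in gWT day 6 libraries, and was matched (-0.36 ± 0.06). Pf4, a platelet and macrophage chemokine, was at 9.93, 12.6 and 11.8 RPKM in gKO-labelled day 3 libraries, against 76.9, 88.4 and 80.6 RPKM in gWT day 6 libraries (-2.74 ± 0.14). Fabp5, a fatty acid carrier, was at 18.4, 20.3 and 16.2 RPKM in gKO-labelled day 3 libraries, against 89.7, 87.4 and 102 RPKM in gWT day 6 libraries (-2.29 ± 0.09). Cpq, Dmpk, Ifi204 and Ctla2b complete the 15 largest falls, with log2 differences of -2.73, -2.36, -2.19 and -2.14. Ifi204 and Ctla2b belong to families of close copies, so their single values are uncertain. The groups did not overlap for any of the 15.

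The comparison was also read over genes that changed at least 4-fold between day 0 and day 6 under the gKO label. That change was measured in other libraries than the 6 compared, but the genes were drawn from the 10624 that passed the level filter in these 6. Of the 390 genes (3.67% of those tested) that rose in gKO-labelled cells over the 6 days, 296 (75.9%) were matched between gKO-labelled day 3 and gWT day 6, 171 were lower and 28 higher, with a median log2 difference of -0.15. The share matched over all tested genes was 84.9%. Lower by at least 2-fold were 15 of the 390. Akr1c18, a progesterone-inactivating reductase, was at 30.3, 29.9 and 34.1 RPKM in gKO-labelled day 3 libraries, against 117, 106 and 121 RPKM in gWT day 6 libraries (-1.83 ± 0.15, adjusted p = 3.23e-08), and averaged 89.5 RPKM in gKO-labelled cells at day 6. Ifi30, a lysosomal thiol reductase of antigen processing, was at 301, 296 and 328 RPKM in gKO-labelled day 3 libraries, against 826, 781 and 906 RPKM in gWT day 6 libraries (-1.44 ± 0.08), and averaged 293 RPKM in gKO-labelled cells at day 6. Cd207, langerin, was at 1.63, 1.19 and 1.28 RPKM in gKO-labelled day 3 libraries, against 7.25, 7.76 and 6.09 RPKM in gWT day 6 libraries (-1.76 ± 0.10). The brain-type creatine kinase Ckb, one of the most abundant rising genes, was at 5265, 5066 and 5680 RPKM in gKO-labelled day 3 libraries, against 5766, 6167 and 5710 RPKM in gWT day 6 libraries, and was matched.

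Of the 498 genes (4.69% of those tested) that fell over the 6 days under the gKO label, 134 had no gWT day 6 library at 1 RPKM, so they passed the filter through the gKO-labelled day 3 libraries and had to differ. Of the 361 that reached 1 RPKM under both labels, 324 were higher in gKO-labelled day 3 than in gWT day 6 cells, 140 of them by at least 2-fold, against 24.0% and 1.92% of such genes in all. Another 15 were lower and 51 were matched, and the median log2 difference was 0.80. Igfbp4, a binding protein of insulin-like growth factors, was among the matched. It was at 19.3, 20.2 and 18.2 RPKM in gKO-labelled day 3 libraries, against 19.2, 19.9 and 18.1 RPKM in gWT day 6 libraries, and gKO-labelled cells averaged 130 RPKM on day 0. Cebpa, a factor of myeloid progenitors, was at 25.0, 27.2 and 23.7 RPKM in gKO-labelled day 3 libraries, against 23.6, 24.7 and 24.2 RPKM in gWT day 6 libraries, and was matched.

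The levels at day 6 under the gKO label show which differences were smaller by then. Against gWT day 6, the monocyte list had a median log2 difference of 1.53 at gKO-labelled day 3 and of 0.26 at gKO-labelled day 6, where 9 of the 20 genes were called higher and 4 lower. For the neutrophil granule list these medians were 3.34 and 1.53, and all 23 genes were still called higher at day 6. They were, for the interferon list -1.23 and -1.82, and for the GTPase list -0.97 and -1.23. These medians cover all tested genes of each list, including those that passed the level filter through 1 label only. No gWT day 6 library reached 1 RPKM for 4 of the monocyte and 9 of the neutrophil granule genes. No gKO-labelled day 3 library did for 11 of the interferon and 4 of the GTPase genes. The filter thus set part of the day 3 medians, and the step to day 6 is only described. Ly6c2 averaged 1144, 216 and 11.7 RPKM on days 0, 3 and 6 in gKO-labelled cells, against 106, 9.12 and 2.92 RPKM in gWT cells. Ccr2 averaged 77.4, 30.01 and 2.82 RPKM on those days in gKO-labelled cells, against 101, 1.65 and 1.04 RPKM in gWT cells. Isg15 averaged 3.08, 2.37 and 1.43 RPKM in gKO-labelled cells, against 117, 18.3 and 14.99 RPKM in gWT cells. Fabp5 averaged 7.62, 18.3 and 33.2 RPKM in gKO-labelled cells, against 179, 193 and 93.1 RPKM in gWT cells.

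**Figure D4:**
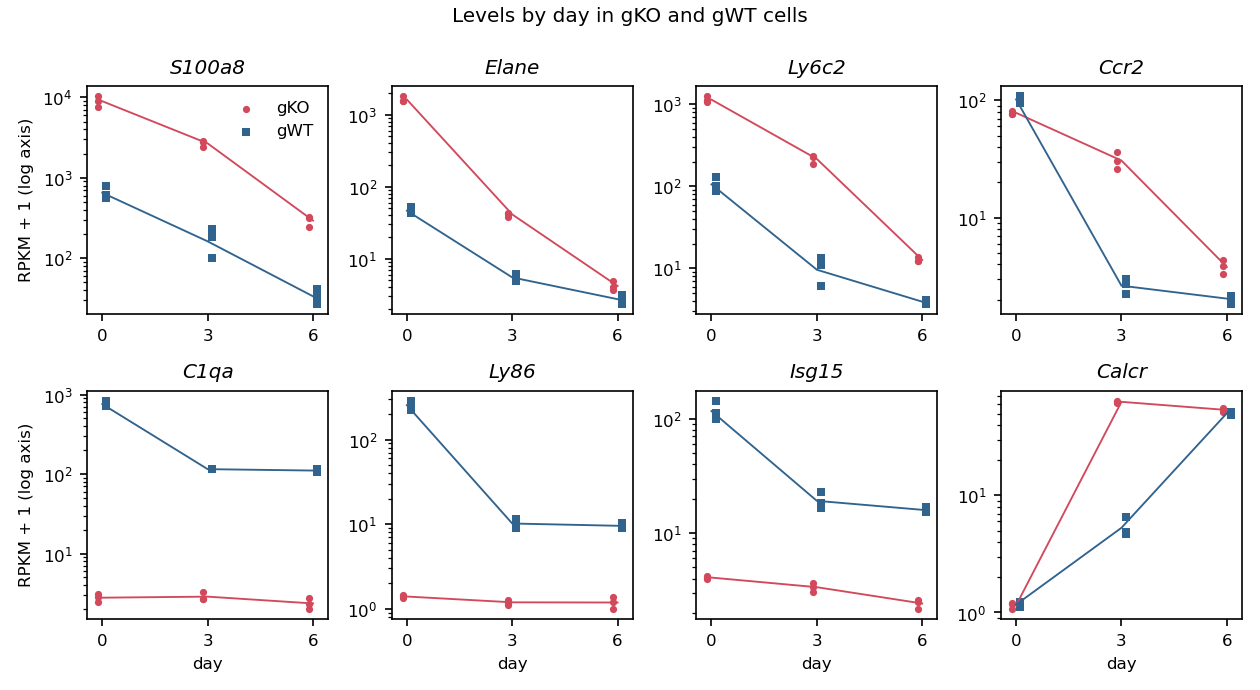
RPKM + 1 on a log axis of 8 genes on days 0, 3 and 6, with each library as a point and lines through the geometric means of 3 libraries, in gKO-labelled and gWT cells. S100a8, Elane, Ly6c2 and Ccr2 have lower means on each later day under both labels and stand higher at gKO day 3 than at gWT day 6; C1qa, Ly86 and Isg15 are lower under the gKO label on each day; Calcr averages 62.0 RPKM at gKO day 3, against 49.3 RPKM at gWT day 6 and 4.35 RPKM at gWT day 3.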

How the data were processed

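Per the file headers, the authors mapped reads with TopHat and computed RPKM per gene with Partek; the submitters' processing notes name TopHat2 2.1.0, bcl2fastq 2.17.1, CASAVA 1.8.4, deepTools and Partek, and the build mm9. The sources used here give no annotation, strand or treatment of reads matching several genes. The deposited sample sheet gives each library's number of alignments. Scaled back by those totals, 94.2% of 39634 values of low genes were whole multiples, within 0.08, of the gene's lowest value.

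From these values log2(RPKM + 1) was fitted with limma 3.58.1 (R 4.3.3; trend and robust moderation) as 6 group means over 18 libraries of one sequencing set, without further scaling; the pseudocount understates differences of low genes. P-values were adjusted by Benjamini-Hochberg over all 10624 genes. Errors of log2 differences are limma standard errors. Named genes were Irf8, the 15 largest rises and falls with a mean of at least 5 RPKM and no overlap, up to 4 most different and 3 highest matched members of each of 37 lists, and those said to be added. The members and lists were chosen with earlier results of these data known. On simulated data for this comparison, run on 10624 genes, the fit called 29 of 50 genes at 1.2-fold, 49 at 1.5-fold and 50 at 2-fold, and 12 of 10424 unchanged genes; 10286 of the unchanged genes and 2 of the 50 at 1.5-fold were matched. Other settings and libraries left out one at a time were tried. Tables were made with Python 3.11.15, pandas 2.3.3 and numpy 2.4.6, figures with matplotlib 3.10.9. The authors' ANOVA tables were not used here.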

Additional observations from a re-analysis of the deposited data

Results flagged for a closer look

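The difference between gKO-labelled and gWT cells was itself not the same on day 3 as on day 6. In limma's test of the difference of differences, 8350 genes (78.6% of 10624) had an adjusted p under 0.05. For Ly6c2 the log2 difference of gKO-labelled minus gWT cells was larger at day 3 than at day 6 by 2.79 (adjusted p = 4.18e-07) and for Saa3 by 4.54 (adjusted p = 1.48e-10). For C1qa (0.23, adjusted p = 0.176) and Isg15 (0.21, adjusted p = 0.269) that test did not pass the threshold.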

How the results depend on the processing

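Of 1414 counts of single lists under other settings, 95 moved by more than 1.5 times; ones that bear on the results stand here or beside them. Without a filter on low values 19410 genes were matched. Keeping genes with an RPKM of at least 5 gave 1812 higher of 7446 tested, 301 of the genes that fell under the gKO label higher, 23 interferon-response genes lower and 3 GTPases lower, counts that shrink with the genes tested. With the bound of a match at 0.32 on the log2 scale, in place of 0.58, 5979 genes were matched. With all 36 libraries in the fit 22 respiratory chain genes were lower, and with only the 6 compared 45 were. With only the 6 libraries compared in the fit, 7 bone-degrading, 7 fusion, 7 late osteoclast, 13 V-ATPase and 5 sealing-zone genes were lower and 6 late osteoclast and 14 sealing-zone genes higher. With the filter at 5 RPKM 7 MHC class I genes were lower and 7 inflammatory genes higher. Leaving out 1 library at a time gave 2328 to 2520 genes higher, 1999 to 2271 lower, 8802 to 8909 matched, 127 to 165 of the rising genes lower, 452 to 459 of the falling genes higher, an Irf8 log2 difference of 1.04 to 1.197, and 17 to 30 respiratory chain, 35 to 36 interferon-response, 10 GTPase, 5 to 7 complement and 15 to 17 macrophage genes lower. In those fits 17 to 26 replication, 17 monocyte and 23 neutrophil granule genes were higher, and 10 bone-degrading and 18 V-ATPase genes were matched.

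The labels number the replicates 1 to 3 in both groups. Deviations from the group means of same-numbered libraries correlated at 0.058, 0.037 and 0.063, so the numbers were not taken to pair samples, although 3 of 3 gKO day 3 libraries correlated best with their own number. With the replicate block 5492 genes were called. Of 3097 values of 222 named genes, 2963 kept their call, 94 lost it, 40 gained it and 0 reversed. Quantile scaling moved the median log2 difference to -0.04 and the share of calls that were higher to 42.1%, against 51.7%. Read counts per gene were not used here, so the counting error of low RPKM values is not included in single values.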

Other observations

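Metabolic and chromatin lists differed in how many genes were matched between gKO-labelled day 3 and gWT day 6 cells, where 84.9% of all tested genes were. In cholesterol synthesis 21 of 22 tested genes were matched (95.5%), 7 were higher and 1 was lower. Among DNA methylation and polycomb genes 13 of 14 tested were matched (92.9%), 9 were higher and 1 was lower. Dnmt3a, a DNA methyltransferase, was that lower one, at 43.6, 42.4 and 45.6 RPKM in gKO-labelled day 3 libraries, against 51.5, 53.0 and 50.8 RPKM in gWT day 6 libraries (log2 difference -0.23 ± 0.06, limma adjusted p = 0.00603). In serine and one-carbon metabolism 13 of 16 tested genes were matched (81.3%), 4 were higher and 7 lower. Of the 15 that reached 1 RPKM under both labels, 3 were higher and 7 lower. Asns, asparagine synthetase, was at 8.41, 8.57 and 10.7 RPKM in gKO-labelled day 3 libraries, against 13.5, 12.4 and 12.4 RPKM in gWT day 6 libraries (-0.44 ± 0.07, adjusted p = 7.54e-05). In iron handling 11 of 16 tested genes were matched (68.8%), and Hmox1, heme oxygenase, was at 40.9, 45.2 and 41.3 RPKM in gKO-labelled day 3 libraries, against 64.0, 65.9 and 72.2 RPKM in gWT day 6 libraries (-0.65 ± 0.08).

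Toll-like receptor genes were higher in 7 and lower in 5 of 18 tested. Of the 15 that reached 1 RPKM under both labels, 6 were higher and 3 lower. Tlr2 was at 23.2, 27.6 and 21.4 RPKM in gKO-labelled day 3 libraries, against 10.5, 10.4 and 10.9 RPKM in gWT day 6 libraries (1.10 ± 0.09, adjusted p = 1.02e-08), while Tlr4 was at 3.88, 4.29 and 3.82 RPKM in gKO-labelled day 3 libraries, against 6.33, 6.03 and 5.97 RPKM in gWT day 6 libraries (-0.51 ± 0.06). Of 7 Fc receptor genes 3 were higher, 1 was lower and 4 were matched. The 1 lower gene had no gKO-labelled library at 1 RPKM. Chemokine ligands were higher in 4 and lower in 5 of 13 tested. For 2 of the 13, Cxcl2 among them, no gWT library reached 1 RPKM, so these had to differ. Of the 11 that reached it under both labels, 2 were higher and 5 lower. Cxcl2, a neutrophil attractant, was at 4.31, 6.36 and 4.504 RPKM in gKO-labelled day 3 libraries, against 0.379, 0.390 and 0.295 RPKM in gWT day 6 libraries (2.15 ± 0.13, adjusted p = 4.71e-10).

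Summed markers of lymphoid, erythroid and progenitor cells were low under both labels and mostly higher under the gKO label. The 5 T and NK cell markers, carried by Cd4, summed to 6.04 to 7.17 RPKM in gKO-labelled day 3 libraries and to 2.001 to 2.86 RPKM in gWT day 6 libraries. The 6 B cell markers summed to 1.14 to 1.45 RPKM in gKO-labelled day 3 libraries and to 0.237 to 0.323 RPKM in gWT day 6 libraries. The 3 progenitor markers summed to 1.31 to 1.497 RPKM in gKO-labelled day 3 libraries and to 0.974 to 1.19 RPKM in gWT day 6 libraries. Of the longer progenitor list 6 genes were tested, 3 were higher and 1 lower. For 2 of the 6, Myb among them, no gWT library reached 1 RPKM, so these had to differ. Of the 4 that reached it under both labels, 1 was higher and 1 lower. Myb, a progenitor transcription factor named with its values known, was at 2.71, 2.62 and 2.38 RPKM in gKO-labelled day 3 libraries and at 0.0770 to 0.0977 RPKM in gWT day 6 libraries. The erythroid and megakaryocyte markers summed to 0.243 to 0.358 RPKM in gKO-labelled day 3 libraries and to 0.183 to 0.325 RPKM in gWT day 6 libraries. Cd3g and Epx were at 0 in all 6 libraries. Cd4, which monocytic cells also express, was at 6.31, 7.02 and 5.97 RPKM in gKO-labelled day 3 libraries, against 1.86, 2.72 and 2.32 RPKM in gWT day 6 libraries (1.18 ± 0.10, adjusted p = 4.38e-08). Ear2, a ribonuclease of eosinophils and some monocytes with close copies in its family, was at 14.5, 15.8 and 12.7 RPKM in gKO-labelled day 3 libraries and at or below 0.1004 RPKM in gWT day 6 libraries. Ear2 thus passed the level filter through the gKO-labelled libraries only and had to differ. Among 13 tested stromal and endothelial genes 1 was called lower and 2 higher, and 7 were called lower without gWT day 6 replicate 3. Of the 12 that reached 1 RPKM under both labels, 2 were higher and 0 lower. Sparc, a matrix protein, was at 7.24, 7.003 and 5.08 RPKM in gKO-labelled day 3 libraries, against 21.4, 10.4 and 5.54 RPKM in gWT day 6 libraries, which did not pass the test (-0.69 ± 0.35, adjusted p = 0.122).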
